A study of Rattus norvegicus with 23 samples.

Results

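The genes described here encode the proteins of the cytosolic ribosome, measured in the rat area postrema, a small sensory organ of the dorsal medulla that lies outside the blood-brain barrier. They were chosen by symbol in the array's annotation. A probe set counted when it carried a single gene symbol that begins with Rpl or Rps and a digit, or with Rplp, or is Rpsa, while the Rps6k kinases (14 probe sets of 7 symbols) and 2 symbols with a pseudogene tag were left out. This gave 48 genes from 55 probe sets, of 14217 genes with a single symbol on the array, with 33 named for the large subunit and 15 for the small one. Where a gene had several probe sets, the brightest by its average log2(signal + 16) on the 23 arrays was used. A single probe set was on the array for 42 genes, 2 for 5 genes and 3 for Rpsa. A further 30 probe sets carry several ribosomal protein symbols at once and are not members, so proteins such as Rps2, Rps14, Rps19, Rpl8 and Rpl10 are outside the set.

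A ribosome joins a small and a large subunit, each built on ribosomal RNA and many proteins made in near-equal numbers. The small subunit decodes the messenger RNA and the large one forms the peptide bond. The messenger RNAs of ribosomal proteins typically begin with a run of pyrimidines, the 5′ terminal oligopyrimidine or TOP tract, through which the mTOR kinase and the protein Larp1 set how strongly they are translated when nutrients change. Control at that step alters protein output and need not alter the RNA level that an array reads.

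RNA was hybridised to Affymetrix Rat 230 2.0 arrays, and every array holds a pool of area postrema RNA from 5 male rats. The spontaneously hypertensive rat (SHR) and its normotensive counterpart, the Wistar Kyoto rat (WKY), gave 5 arrays apiece, from animals aged 10 to 13 weeks. Sprague Dawley rats, 10 to 12 weeks old, gave 4 control arrays, 5 arrays from animals fasted for 48 h and 4 from animals dehydrated for 72 h. The labels name no genetic change or drug in any group, and pooling hides the spread between animals. The study's title names the thirsty, the hungry and the hypertensive rat as its subjects.

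The deposited signals had been scaled per array, with array medians of 39.81 to 44.48. The highest signal of an array was 6131 to 8806 in SHR and WKY and 9764 to 15483 in Sprague Dawley rats. Of 7 listed markers of area postrema neurons 6 were on the array. Calcr, the calcitonin receptor, read 95.6 to 166, and Th, the catecholamine synthesis enzyme tyrosine hydroxylase, 246.1 to 428.2. Dbh read 183.4 to 372.8, Casr 162.1 to 299.8 and Ramp3 51.8 to 87.5. Glp1r read 19.5 to 49.3, with a median of 33.4 that is below the array medians. Summed signals of 8 microglia and macrophage markers were 2530 to 3015 in SHR and 3276 to 3619 in WKY, and 4 of them passed the test as lower in SHR. Summed signals of 7 fibroblast and meningeal markers were 2204 to 2937 in SHR and 3177 to 3921 in WKY, and 3 passed as lower in SHR: Col1a2, of type I collagen (-0.67, limma adjusted p = 0.00153), Fmod, a collagen-binding proteoglycan (-0.51, adjusted p = 0.000805), and Igf2, a growth factor (-0.53, adjusted p = 0.00463). Of all probe sets tested 2.88% passed as lower in SHR. Ttr, an abundant choroid plexus transcript, ranged from 44.2 to 7953 over the arrays. As bulk samples, fewer cells of a type and less RNA per cell cannot be told apart. The part of these markers in the results was not tested.

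The sequence around the annotated start was read from RefSeq promoters of the rat build GRCr8 for 41 of the 48 genes (85.4%). A run of at least 7 pyrimidines that includes a C, on the transcript strand and touching the 25 bases on either side of the start, was found in 34 of the 41 (82.9%), against 9487 of 27457 promoters in the table (34.6%). The median run was 12 bases in the members with a run and 8 in all promoters with one, and the longest member run, at Rpl7a, had 24. The genes below are members named in the results, of which Rpl21 alone passed the test between SHR and WKY. Each stretch of 30 bases starts 8 bases before the run, reads 5′ to 3′ on the transcript strand and has the run in capitals.
Rpl21, GRCr8 chr12:13386157-13386186, minus strand: gcgcgcagCCCCTCCCTCTTCCTTTCCgcc
Rplp0, GRCr8 chr12:46718372-46718401, minus strand: gcaccgcaCTTCTCTCgccaggcgtcctca
Rpsa, GRCr8 chr8:128728855-128728884, plus strand: gccgcccgTCCTTTCCgcgctaccctggaa
Rpl24, GRCr8 chr11:58128364-58128393, minus strand: ataaggtgTTTTCCCatgattctttctttc
Rpl35, GRCr8 chr3:43165913-43165942, minus strand: cggccccgCCCCTTCCTCTTTCTCTCgaac
Rpl26, GRCr8 chr10:54109706-54109735, plus strand: catgtagaTCTCTTTCCTTTTgcggccatc
Rps23, GRCr8 chr2:23814507-23814536, plus strand: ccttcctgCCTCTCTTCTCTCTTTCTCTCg
Rps6, GRCr8 chr5:106420546-106420575, minus strand: aagtcgggCCTCTTTTTCgtgacgcctcct
The run had 19 bases at Rpl21, 21 at Rps23, 18 at Rpl35, 13 at Rpl26 and 10 at Rps6. It had 8 at both Rplp0 and Rpsa and 7 at Rpl24, the shortest length counted. Relative to the annotated start, the run began at -13 at Rpl35, -3 at Rplp0 and -2 at Rps23 and crossed the start. It began at -27 at Rps6, -25 at Rpl21 and -16 at Rpsa and ended before the start. At Rpl24 and Rpl26 it began after the start, at 21 and 23. A run counted here is therefore not shown to be a TOP tract. No such run was in the window of Rpl3, Rpl6, Rpl11, Rpl41, Rpl7l1, Rpl26l1 and Rps27l, the last 3 of which are paralogues. Over the whole promoter of 300 bases (250 before the start and 50 after it), on both strands, GGGCGG, the core of the GC box, was in 25 of 41 members (61.0%) and 34.9% of all promoters. The motif CCGGAAG, of the ETS and GABP type, was in 10 members (24.4%) and 9.22% of all promoters, and AAGATGG, of the YY1 type, was in 8 members (19.5%) and 7.30% of all promoters. A match is a stretch of letters and not a measured binding site.

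The members were among the brightest probe sets of the array. Mean signal over the 23 arrays was over 1000 for 37 of 48, and Rps29, Rps23 and Rpl41 had the highest values at 4781, 4057 and 3894. Rpl22, an RNA-binding protein of the large subunit, had 911.7. The other 10 were under 250. These were Rpl3l, Rpl39l1, Rps27l, Rpl26l1, Rpl7l1 and Rps4y2, which are paralogues of ribosomal proteins, and Rpl28, Rpl30, Rps13 and Rpl39, whose low signals say nothing of their abundance, since signals of different probe sets are not on 1 scale. The lowest were Rpl3l, Rpl39l1 and Rpl28 at 3.90, 11.9 and 12.7. Probe sets below the 40th percentile of mean signal were not tested, which removed 5 members (Rpl28, Rpl30, Rpl39l1, Rpl3l and Rps13) in each comparison and left 43. The probe sets chosen for Rpl13a, Rpl3l and Rps24 are of a type whose probes are shared by several transcripts, which may be of the same gene.

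**Figure D1:**
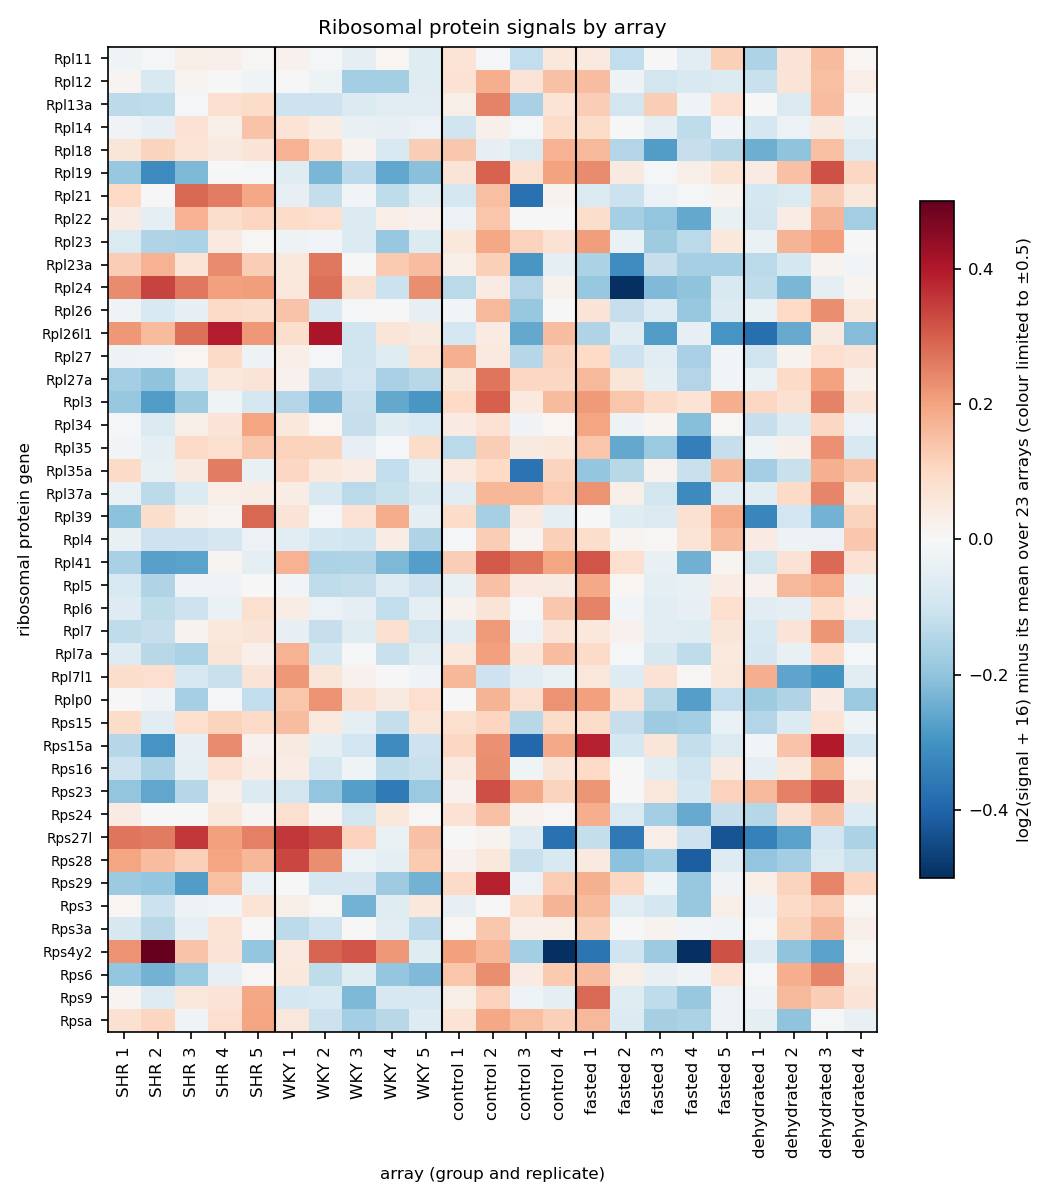
Each row is 1 of the 43 tested genes and each column 1 of the 23 arrays, with groups separated by black lines; colour gives log2(signal + 16) minus the gene's mean over the arrays, limited to ±0.5. Some columns lean to 1 colour: control 2, fasted 1 and dehydrated 3 are red over most rows, with column means of 0.14, 0.10 and 0.12.

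Within a group the members had a lower SD than all probe sets, and arrays differed in the members' mean. Across the members on an array, the SD of the centred values ran from 0.08 (control 1) to 0.18 (SHR 2). How far the members moved together was not tested. The SD between arrays of a group had a median of 0.105 (log2) over the 43 members and of 0.160 over the 18625 probe sets tested. Most members are far brighter than most of those probe sets, and the SD at equal brightness was not compared. Arrays differed in the mean of all members: after each gene was centred on its mean over the 23 arrays, the array means ran from -0.05 to 0.08 in SHR, from -0.07 to 0.05 in WKY, from -0.04 to 0.14 in controls, from -0.13 to 0.10 in fasted rats and from -0.08 to 0.12 in dehydrated rats. Control 2, fasted 1 and dehydrated 3 were the highest of their groups, at 0.14, 0.10 and 0.12. The same 3 arrays were also the highest of their groups in the mean of the 565 other probe sets with a mean signal over 1000, a set chosen after the data were seen, at 0.12, 0.07 and 0.13. The ranges of all 5 groups overlapped in the member mean.

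**Figure D2:**
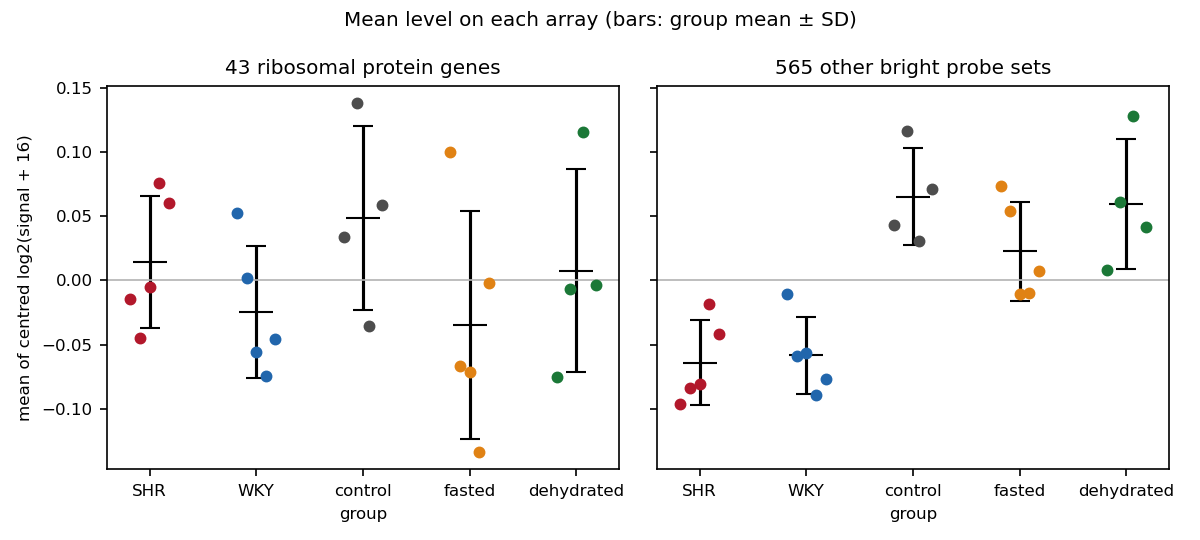
Points are arrays and bars are the group mean ± SD; the vertical axis is the mean of log2(signal + 16) after centring each gene on its mean over 23 arrays, for the 43 ribosomal protein genes (left) and for 565 other bright probe sets (right). On the left all 5 groups overlap, while on the right the SHR and WKY arrays lie at or below -0.01 and most Sprague Dawley arrays lie above 0.

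In the comparison of SHR with WKY, a single ribosomal protein gene passed the test and the others moved by small amounts. Rpl21, a large-subunit protein, was higher in SHR by 0.24 (log2). Two-sided limma tests with Benjamini-Hochberg adjustment over all 18625 probe sets called 1 of 43 members higher and 0 lower, where 2.17% of all probe sets were called higher and 2.88% lower, so the members' count is near that background. An unadjusted p below 0.05 was reached by 5 members (11.6%) and by 17.2% of all probe sets. The median size of the difference, whatever its sign, was 0.04 in the members and 0.09 in all probe sets, which are mostly dimmer.

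Rpl21 read 1835, 1710, 2092, 2051 and 1962 on the SHR arrays and 1664, 1576, 1697, 1569 and 1641 on the WKY arrays. All 5 SHR arrays were above the highest WKY array, by a narrow margin for SHR 2. The group means were 1930 ± 158 and 1629 ± 55.6 (SD, n = 5 each), a log2 difference of 0.24 (SE 0.058, limma adjusted p = 0.0194). The call was lost with the 3′ to 5′ signal ratio of Gapdh (log2) as a covariate (0.18, adjusted p = 0.0599), a ratio that rises as RNA degrades and averaged 0.21 in SHR and 0.13 in WKY. It was also lost with a plain eBayes fit (adjusted p = 0.0824) and without SHR 3, SHR 4, WKY 2 or WKY 4 (adjusted p = 0.0683, 0.0523, 0.0566 and 0.0516).

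Rplp0, the stalk base protein of the large subunit that is often used as a reference gene, pointed the other way. It read 2189, 2156, 1945, 2168 and 2008 in SHR and 2408, 2554, 2306, 2257 and 2320 in WKY. All SHR arrays were below all WKY arrays, yet the difference of -0.18 (SE 0.052) did not pass (limma adjusted p = 0.0592). It passed with quantile normalization (-0.18, adjusted p = 0.0378).

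Rpsa, a small-subunit protein that is also known as the laminin receptor, read 1682, 1721, 1578, 1694 and 1835 in SHR and 1661, 1479, 1416, 1448 and 1526 in WKY. WKY 1 lay inside the SHR range. The difference of 0.18 (SE 0.056) had a limma adjusted p of 0.0874. All 3 Rpsa probe sets differed by 0.18. The ones not chosen are of a type whose probes may also match other transcripts (adjusted p = 0.182 and 0.213). The mean of all 3 passed (adjusted p = 0.0468), and so did the chosen probe set without WKY 1 (0.21, adjusted p = 0.034).

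Rps9, a small-subunit protein bound early in assembly, read 2130, 2018, 2197, 2209 and 2416 in SHR and 1982, 1999, 1802, 1993 and 1995 in WKY. The arrays did not overlap, and the difference of 0.16 (SE 0.054) did not pass (limma adjusted p = 0.101). Rpl24, a large-subunit protein at the subunit interface, read 1774 ± 67.7 in SHR and 1608 ± 171 in WKY (SD, n = 5 each), and 4 SHR arrays lay inside the WKY range (log2 0.15, adjusted p = 0.260). On the negative side, Rpl7l1 and Rpl7a followed Rplp0 with differences of -0.05 and -0.04 (limma adjusted p = 0.80 and 0.824).

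Of the 43 members, 3 had SHR and WKY arrays that did not overlap, Rpl21 and Rps9 higher and Rplp0 lower, a share close to the 6.33% of all probe sets. Rpl39l1, a paralogue of Rpl39, was below the level filter and also did not overlap: it read 17.3 to 29.7 in SHR and 6.55 to 15.6 in WKY. Without the filter its difference was 0.53 (SE 0.14, limma adjusted p = 0.0632), near the bottom of the scale. The differences were positive at 34 of 43 members, with a median of 0.03 against 0.01 over all probe sets. With the Gapdh covariate 27 were positive and 16 negative, with a median of 0.01. The median was 0.01 without SHR 4 and 0.05 without SHR 2 or without WKY 1. Over all 48 members 38 were positive and the median was 0.03. The mean over the 43 members differed by 0.04 between the strains, and single arrays of a strain had an SD of 0.05. That SD is not the error of a difference between group means, and the difference in the member mean was not tested.

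**Figure D3:**
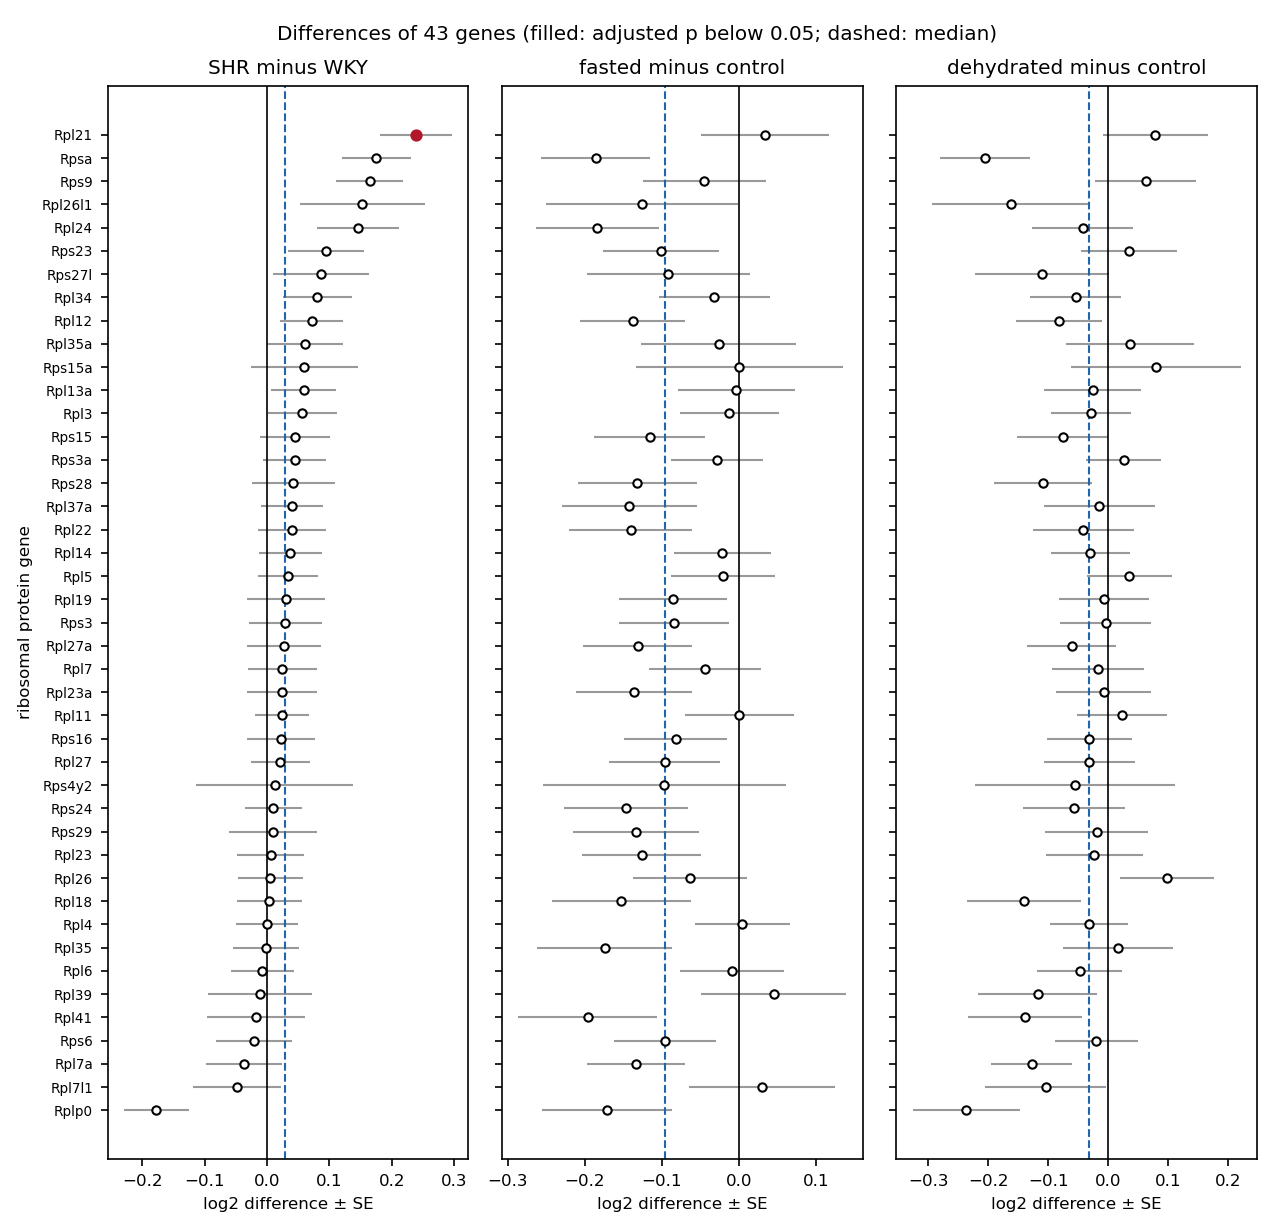
Points are log2 differences of the 43 tested genes with bars of 1 SE, sorted by the difference between SHR and WKY and kept in that order; filled points passed an adjusted p of 0.05 and dashed lines mark the median of each panel. A single point, Rpl21 in SHR against WKY, is filled, and the dashed line lies at 0.03, -0.10 and -0.03 from left to right.

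After 48 h without food no ribosomal protein gene passed the test, and most read slightly lower than in controls. The limma test called 0 of 43 members in either direction, where 0.0215% of all probe sets (4 of 18625) were called, and the smallest adjusted p of a member was 0.577. The difference was negative at 37 of 43 members, with a median of -0.10 against 0.00 over all probe sets. Over all 48 members 40 were negative and the median was -0.09. An unadjusted p below 0.05 was reached by 4 members, all lower, which is 9.30% of them against 7.20% of all probe sets.

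The size of this shift moved with single arrays and with the scaling. The mean over the 43 members differed by -0.08, while the mean of the 565 other bright probe sets differed by -0.04. Single arrays of a group had an SD of 0.08 in the member mean. That SD is not the error of a difference between group means, and the difference in the member mean was not tested. The median was -0.05 without control 2 and -0.13 without fasted 1. With the arrays quantile normalized it was -0.02, with 24 members negative and 19 positive. It was -0.09 with each array scaled to its median, and -0.04 with only controls 3 and 4. The arrays of the groups overlapped at all 43 members, where 2.32% of all probe sets did not overlap.

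The members with the smallest p in this comparison were Rpsa, Rpl24, Rpl41 and Rpl7a. Rpsa read 1674, 1827, 1775 and 1736 in controls and 1786, 1521, 1420, 1429 and 1564 in fasted rats. All fasted arrays but the first were below every control. The difference was -0.19 (SE 0.071, limma adjusted p = 0.577), and the other Rpsa probe sets gave -0.03 and -0.24.

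Rpl24 read 1352, 1532, 1342 and 1511 in controls and 1303, 1045, 1274, 1292 and 1409 in fasted rats. Again 4 fasted arrays were below the lowest control, and fasted 5 was inside the control range (-0.18, SE 0.080, adjusted p = 0.659). Rpl41, which encodes a very short basic peptide of the large subunit, read 4202, 4778, 4645 and 4429 in controls and 4798, 4093, 3761, 3266 and 3901 in fasted rats, so that fasted 1 exceeded all controls and the other 4 were below them (-0.20, SE 0.090, adjusted p = 0.677). Rpl7a, a large-subunit protein, differed by -0.13 (adjusted p = 0.693). The highest differences were at Rpl39, Rpl21 and Rpl7l1, at 0.05, 0.03 and 0.03 (adjusted p of 0.954 to 0.971).

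After 72 h of dehydration the ribosomal protein genes again gave no call. Of 43 members 0 passed, where 0.166% of all probe sets did, and the smallest limma adjusted p was 0.283. The median difference from controls was -0.03 against -0.01 over all probe sets, and 33 of 43 were negative. With each array scaled to its median the member median was 0.01 and that of all probe sets 0.03. This scaling moved all probe sets together, so the sign of the member median depends on the scaling. The member median was below that of all probe sets with either scaling, and the gap between them was not tested. Without control 2 the median was -0.00, without dehydrated 1 it was -0.01, and without dehydrated 3 it was -0.06. It was -0.07 without control 3, and -0.02 without control 4. An unadjusted p below 0.05 was reached by 2 members, Rpsa and Rplp0, or 4.65% against 11.7% of all probe sets. The controls are those of the fasting comparison, so the 2 sets of differences are not independent.

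Rpsa read 1547, 1385, 1590 and 1557 in dehydrated rats, each below the lowest control at 1674. It was the only one of the 43 members whose arrays did not overlap, where 6.68% of all probe sets did not. The difference was -0.21 (SE 0.074, limma adjusted p = 0.283), and its other probe sets gave -0.03 and -0.14. Rplp0 read 1931, 1968, 2248 and 1922 in dehydrated rats and 2186, 2461, 2313 and 2557 in controls. Dehydrated 3 lay inside the control range and the other 3 were below it (-0.24, SE 0.089, adjusted p = 0.305). Rpl7a differed by -0.13 (adjusted p = 0.472). Of the members with positive differences, Rpl26, Rpl21 and Rps9 had the smallest p, at 0.10, 0.08 and 0.06 (adjusted p of 0.647 to 0.815).

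Dehydrated and fasted rats were compared directly as well. Of 43 members 0 passed, where 0.0322% of all probe sets did, and the median difference was 0.05 with 31 positive. It was 0.01 without dehydrated 3, 0.03 without fasted 4 and 0.08 without dehydrated 1. Rpl35, a protein near the exit of the peptide tunnel, read 1781, 1842, 2123 and 1714 in dehydrated rats and 1993, 1513, 1588, 1426 and 1668 in fasted rats. Fasted 1 lay among the dehydrated arrays and the other fasted arrays were below them (0.19, SE 0.087, limma adjusted p = 0.465). Rpl26, a large-subunit protein that also binds the p53 messenger RNA, read 4024 ± 315 against 3592 ± 233 (SD, n = 4 and 5; 0.16, adjusted p = 0.465), and Rps23, of the decoding centre, differed by 0.14 (adjusted p = 0.577). The lowest differences were at Rpl39, Rpl7l1 and Rplp0, at -0.16, -0.13 and -0.07 (adjusted p of 0.592 to 0.846). At 0 of 43 members the groups failed to overlap, against 3.23% of all probe sets.

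**Figure D4:**
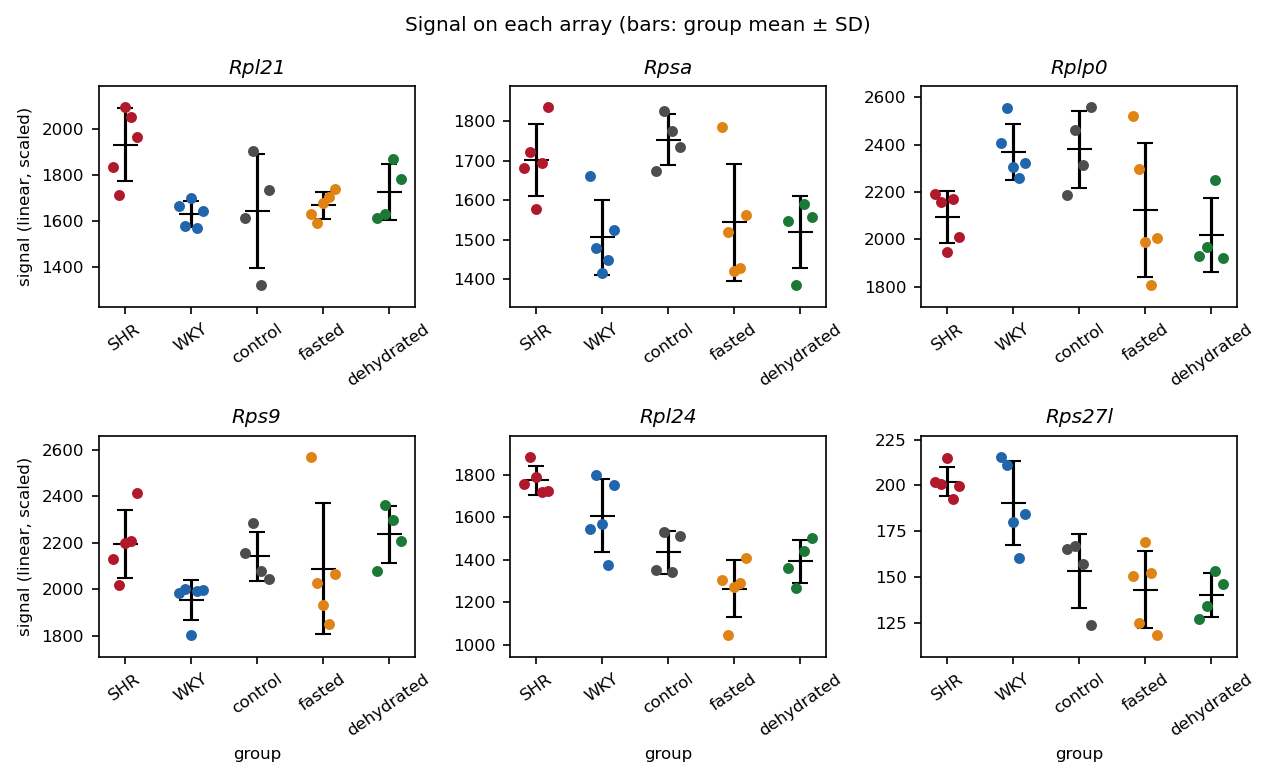
Signals of 6 genes on each array, as deposited, with the group mean ± SD; the vertical axes are linear and do not start at 0. The SHR arrays of Rpl21 and Rps9 lie above the WKY arrays, those of Rplp0 lie below, and the dehydrated arrays of Rpsa lie below the controls.

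Members of a set list are described here, and some of them have roles of their own outside the ribosome. Rpl5 and Rpl11 bind Mdm2 and stabilise p53 when ribosome assembly fails. Rpl11 averaged 2334 ± 35.5 in SHR, 2296 ± 57.2 in WKY, 2323 ± 140 in controls, 2325 ± 150 in fasted and 2364 ± 214 in dehydrated rats (SD, n = 5, 5, 4, 5 and 4), and its group means spanned 0.04 on the log2 scale. The group means of Rpl5 spanned 0.17. Rps6, the small-subunit protein phosphorylated by S6 kinase, averaged 3362 ± 250 in SHR and 3412 ± 265 in WKY, and 4044 ± 218, 3783 ± 206 and 3995 ± 325 in control, fasted and dehydrated rats. Rpl13a, which can leave the ribosome to silence inflammatory messenger RNAs, spanned 0.12 and Rpl7 spanned 0.09. Rpl22 spanned 0.19, lowest in fasted rats at 841.6 ± 84.0 and highest in SHR at 957.5 ± 54.2.

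Between the 10 SHR and WKY arrays and the 13 Sprague Dawley arrays levels are described without a test, since strain, array set, age range and labelling text differ together and cannot be told apart. The median member difference was -0.01 (log2), with 20 positive and 23 negative. Single genes ranged from -0.32 to 0.40. Rpl3, which lines the peptidyl transferase centre, was the lowest at 2803 to 3385 against 3556 to 4224, and the 2 ranges did not overlap. It was the 1 member of 43 of which this was true, where 3.48% of all probe sets did not overlap. Rps23, Rpl19 and Rpl41 followed at -0.31, -0.29 and -0.24. At the other end were Rps27l, a p53-inducible paralogue of Rps27, at 160.6 to 215.4 against 118.2 to 169.3 (0.40), Rpl24 (0.32), Rpl26l1 (0.31), Rps4y2, a paralogue of Rps4x (0.30), Rps28 (0.26) and Rpl23a (0.23), all with overlapping arrays. Rpl3, Rps23, Rpl19 and Rpl41 are bright probe sets, and the 565 other bright probe sets were also lower in SHR and WKY (group means of -0.06 each) than in control, fasted and dehydrated rats (0.07, 0.02 and 0.06); the part of this in the gene differences was not tested.

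The probe sets with several ribosomal protein symbols were read beside the members, as an alternative chosen after the data were seen. Of 29 tested, 0 passed in any of the 4 comparisons. Of all probe sets 2.17% were called higher and 2.88% lower between SHR and WKY, and at most 0.166% in the other comparisons. The medians of the 29 were 0.05 for SHR minus WKY, -0.08 for fasted and -0.06 for dehydrated against controls, and 0.04 for dehydrated minus fasted. In fasted rats 28 of the 29 were negative, and in SHR 25 were positive.

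Other genes of the translation machinery were read from lists taken from general knowledge. Among 12 elongation factors and other genes with TOP messenger RNAs, 1 passed as higher in SHR than in WKY, Hnrnpa1, an RNA-binding splicing factor (0.22, limma adjusted p = 0.0246). Of 28 initiation factors 1 passed as lower, Eif3c, a core subunit of the factor that binds the small ribosomal subunit (341.3 ± 26.2 against 470.9 ± 57.6, SD, n = 5 each; -0.44, adjusted p = 0.00194). Of 46 ribosome biogenesis genes 1 passed as higher, Nop58, of the box C/D particle that guides ribosomal RNA methylation (0.21, adjusted p = 0.0451). With median scaling 0 of the biogenesis genes passed. With the Gapdh covariate 0 passed in the biogenesis and the elongation list, and 1 each in the initiation and the mTOR list. Of 25 genes of mTOR signalling 1 passed as lower, Rragd, a Rag GTPase that brings mTORC1 to the lysosome (35.2 ± 4.06 against 81.9 ± 8.95; -0.93, adjusted p = 5.28e-06). Between SHR and WKY 2.17% of all probe sets were called higher and 2.88% lower. A single call in lists of these sizes therefore says little about the lists. No gene of these lists passed in any comparison among Sprague Dawley rats, where 0.0215% to 0.166% of all probe sets were called.

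Proteins of the mitochondrial ribosome form a separate machine with its own gene set. Of 73 tested, Mrps6 passed as higher (0.28, limma adjusted p = 0.0319) and Mrpl4 as lower (-0.36, adjusted p = 0.00154) in SHR. Over all probe sets 2.17% were called higher and 2.88% lower. With the Gapdh covariate 1 gene of this list passed. In SHR 61 differences were positive, with a median of 0.07. In fasted rats 0 passed, 63 were negative and the median was -0.10, which stayed at -0.10 with quantile normalization, where the cytosolic median was -0.02. In dehydrated rats 0 passed, 55 were negative and the median was -0.06, or -0.02 with each array scaled to its median. The elongation and TOP list had medians of 0.03, -0.02 and -0.07 in SHR, fasted and dehydrated rats, the initiation factors 0.04, -0.03 and 0.01, the biogenesis genes 0.04, -0.05 and 0.02 and the mTOR list 0.03, 0.02 and -0.02. These medians carry no test, and several change sign under another scaling. With quantile normalization the elongation list had 0.01 in fasted rats and the initiation factors -0.01 in dehydrated rats. With median scaling the mTOR list had 0.02 in dehydrated rats. That scaling also moved the median of all probe sets there, from -0.01 to 0.03, and the mTOR list stayed below it.

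**Figure D5:**
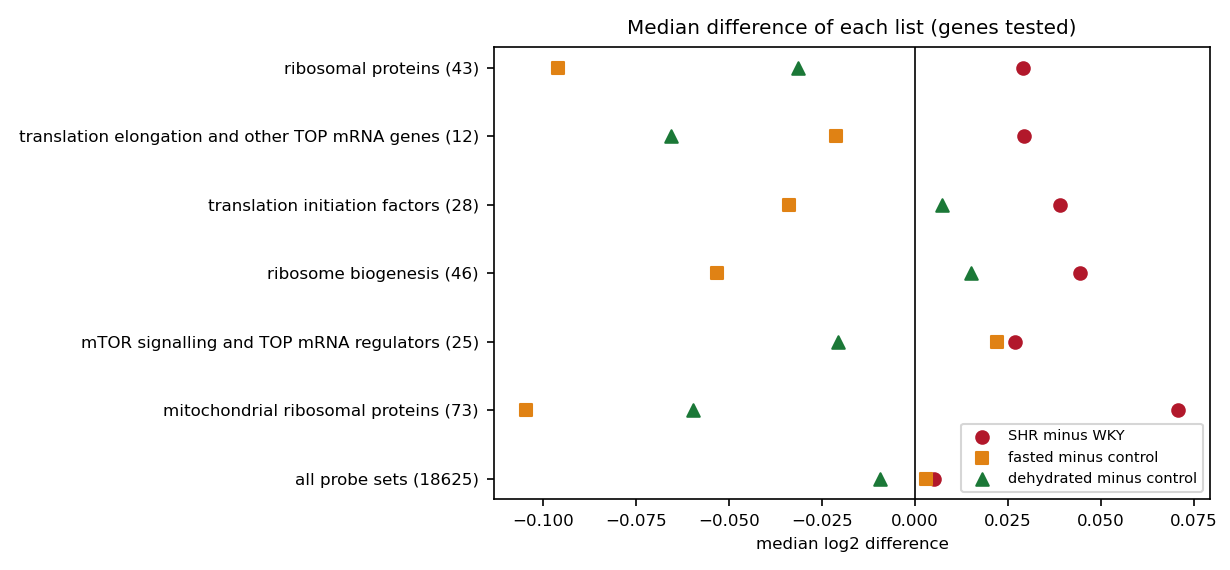
Each symbol is the median log2 difference of a gene list in 1 of 3 comparisons, with the number of genes tested in brackets. The cytosolic and the mitochondrial ribosomal proteins lie furthest left for fasted minus control, at -0.10 each, and all probe sets together lie close to 0.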

How the data were processed

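RNA of the 23 samples was amplified with a MessageAmp II kit before hybridisation. Each of 31099 probe sets (57 of them controls) has 1 deposited intensity per array, on a linear scale. Per the submitters' processing notes the software was GCOS 1.2, and no source used here gives its settings. The mean of each array after trimming 2% at each end was 100, so no further normalization was applied. Precision is limited by how many arrays there are, and p-values reflect the spread among pools.

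Sample titles gave the groups, and columns without a sample numbered 0. Probe sets were named from the platform annotation (20826 with 1 symbol, 436 with several, 9780 with none). The members, gene lists and tests were chosen with earlier results of these data known. Adding 16 before the log2 understates folds at low signal. The 10 SHR and WKY arrays were fitted by themselves and the 13 Sprague Dawley arrays in a model of 3 groups, with limma 3.58.1 (R 4.3.3), using lmFit and a trended, robust eBayes, two-sided. Control probe sets and those whose mean signal was below the 40th percentile were left out. Adjustment was by Benjamini-Hochberg over 18625 probe sets with a threshold of 0.05. Genes named are the members that pass, the 3 with the smallest p in each direction of each comparison, and the 3 brightest and 3 dimmest. A set list of members, including paralogues and genes with roles of their own, was added. Up to 3 passing genes of each gene list were also named. The genes named between SHR and WKY together and Sprague Dawley rats, and those named for single arrays, were picked after their values were seen. Python 3.11.15 with pandas 2.3.3, numpy 2.4.6 and matplotlib 3.10.9 made tables and plots. The fit was tested on simulated data. Most same-numbered arrays did not deviate together, but arrays 1 and 2 of SHR and WKY did so weakly (r = 0.16 and 0.28). The labels state no pairing, and the numbers were not used to pair arrays in the fit.

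Alternatives covered the scaling (quantile, or to the array median), pseudocounts of 1 and 64, the filter (none, or the 60th percentile), a plain eBayes, weights per array, a joint fit of the 5 groups, the replicate block, the Gapdh 3′ to 5′ ratio as covariate, averaging a gene's probe sets, leaving out probe sets with a shared-probe suffix, fitting just the groups compared, using just controls 3 and 4 (whose label text matches the treated arrays), and leaving out each array.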

Additional observations from a re-analysis of the deposited data

Results flagged for a closer look

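Single arrays stood apart from the rest of their group at 9 of 215 pairs of a member and a group (4.19%), by Dixon's test at the 95% level, which chance passes in about 1 of 20 groups. Rpl41 read 4361 on WKY 1, where the other WKY arrays read 3186 to 3462, and Rps9 read 1802 on WKY 3, where the others read 1982 to 1999. Rps15, of the small subunit, read 1863 on SHR 2 against 2048 to 2093 on the others. In controls, array 3 was low at Rps15 (1755 against 2043 to 2086) and at Rpl35a (2154 against 2884 to 3006). In fasted rats, array 1 was high at Rpl12 (2056 against 1730 to 1811) and at Rps3a (2741 against 2490 to 2551), and array 2 was low at Rpl23a (1287 against 1426 to 1479). Rplp0 read 2248 on dehydrated 3, where the other dehydrated arrays read 1922 to 1968.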

How the results depend on the processing

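With 0 members passing in the 3 Sprague Dawley comparisons, that count stayed at 0 under every alternative run and with each array left out. In SHR against WKY, 0 members were higher with eBayes without trend and robust and with the Gapdh covariate, 2 (Rpl21 and Rpsa) with the mean of all probe sets, and 0 to 2 with single arrays left out, and 1 (Rplp0) was lower with quantile normalization. The median member difference kept its sign for SHR minus WKY (0.01 to 0.04), fasted minus control (-0.10 to -0.02) and dehydrated minus fasted (0.02 to 0.08), and changed it for dehydrated minus control (-0.04 to 0.01, positive with median scaling). With arrays left out the 4 medians ran from 0.01 to 0.05, -0.13 to -0.05, 0.01 to 0.08 and -0.07 to -0.00. Small differences that did not pass changed sign: Rpl7l1 in SHR minus WKY with the mean of its probe sets (0.0353), and in fasted minus control with that mean (-0.0131), with the Gapdh covariate (-0.023) and over arrays left out (-0.00248 to 0.0877). Over arrays left out, Rpl7a in SHR minus WKY ran from -0.0663 to 0.00985, Rpl39 in fasted minus control from -0.00386 to 0.0821, and Rpl21 from -0.0659 to 0.109 in fasted and -0.0213 to 0.153 in dehydrated rats against controls. The causes were not tested. With the replicate number as a block, 1 member was higher and 0 lower in SHR (Rpl21, limma adjusted p = 0.0221). In the other comparisons 0 passed. Same-numbered arrays correlated between -0.17 and 0.28 in their deviations from the group means. The highest values were at arrays 2 and 1 of SHR and WKY (0.28 and 0.16). Dim probe sets limit what can be seen for the 5 members below the filter, and with 4 or 5 pools a group the typical SE of a member was 0.06 (log2) between the strains and 0.08 in the Sprague Dawley comparisons, so differences the size of most members' cannot be told from 0.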
